A study of Mus musculus with 8 samples.

Results

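Nuclear-encoded subunits of the oxidative phosphorylation chain were measured in neural stem cells taken from the subventricular zone of mice, the neurogenic layer that lines the lateral ventricle. Genes were taken by symbol: the Nduf subunit series of complex I, the Sdh genes of complex II, the Uqcr genes and Cyc1 of complex III, the Cox4 to Cox8 series of complex IV and the Atp5 series of complex V. Of 98 rows with such names, 9 with a pseudogene suffix were dropped, and 89 genes of 45777 remained. These were 41 genes of complex I, 4 of complex II, 9 of complex III, 18 of complex IV and 17 of complex V, assigned by symbol. Low counts left 84 of the 89 for testing among 17644 tested genes. The 5 not tested were Cox4i2, Cox7b2, Cox8c, Ndufa11b and Ndufs6b, of which Ndufa11b and Ndufs6b are annotated as pseudogenes.

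The respiratory chain passes electrons from NADH through complex I, and from succinate through complex II, to ubiquinone and on through complexes III and IV to oxygen. Complexes I, III and IV pump protons across the inner mitochondrial membrane, and complex V uses the gradient to make ATP. Most subunits are encoded in the nucleus and imported, and the hydrophobic cores of complexes I, III, IV and V also need subunits encoded by mitochondrial DNA. Neural stem cells are known for a glycolytic metabolism that turns towards oxidative phosphorylation as they differentiate.

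The study treated the cells with high-density lipoprotein in preparations named ApoM-HDL and ApoM+HDL, for apolipoprotein M, the carrier of the lipid sphingosine-1-phosphate. Cells came from S1PR1-deficient mice, whose genotype is given as S1pr1 deletion, and from control mice of WT genotype, with 2 samples for each genotype and preparation. S1PR1 is a receptor for sphingosine-1-phosphate. The labels used here give no driver or allele for the deletion, no age, and no statement that replicates came from separate cultures or animals, so p-values measure only the spread between these samples. The counts carry the library codes GH, GV, CH and CV, each with the numbers 1 and 2. C was read as control from the first letter of the sample titles, and G as S1PR1-deficient by elimination. The sources used here do not tie H and V to a preparation, so these letters stay codes, and every difference between H and V is a difference between codes.

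Library totals lay between 39619305 and 45698186 counts. Levels below are in CPM, the count relative to the library's TMM-scaled total. The targeted gene did not separate G from C: S1pr1 had counts of 970 and 848 in GH, 1008 and 940 in GV, 1016 and 1033 in CH, and 807 and 703 in CV. The log2 fold change of S1pr1 for G minus C was 0.08 (edgeR, adjusted p = 0.569). It was -0.13 for GH minus CH (edgeR adjusted p = 0.71) and 0.28 for GV minus CV (edgeR adjusted p = 0.0948). Within the C libraries S1pr1 was higher in CH than in CV (0.40, edgeR adjusted p = 0.0433). Which part of the gene is deleted is not given in the sources used here, and why S1pr1 was not lower in G was not tested. The reading of G rests on elimination, after C was read from the titles. Each direction between G and C below is therefore a direction between libraries labelled G and libraries labelled C. The 9 neural stem cell markers (Sox2, Nes and others) summed to 4837 to 5307 CPM in the G libraries and 5577 to 5736 CPM in the C libraries. Fabp7 was lower in G (1252 to 1714 CPM) than in C (1787 to 2021 CPM). So was Nes, with 631.3 to 708.2 CPM in G and 801.8 to 832.6 CPM in C. The other markers of this list, Sox2 among them, overlapped between G and C, and Gfap had at most 0.8525 CPM. Microglial markers summed to at most 0.3003 CPM, with 4 of 7 at 0 in all libraries, and blood markers to at most 0.0771 CPM, with 2 of 3 at 0. Astrocyte markers, all 5 detected, summed to 335 to 355 CPM in G and 460 to 492 CPM in C. Most of that gap was Aldh1l1, with 173 to 179 CPM in G and 280 to 338 CPM in C, whereas S100b was higher in G (8.743 to 10.96 CPM) than in C (6.555 to 7.996 CPM), and Gja1, Aldoc and Aqp4 overlapped. Oligodendrocyte-lineage markers, all 8 detected, summed to 1655 and 1677 CPM in GH, 1653 and 1704 CPM in GV, 1528 and 1435 CPM in CH, and 1955 and 1931 CPM in CV. Neuroblast markers, all 6 detected, summed to 380.4 and 387.1 CPM in GH, 427 and 413.2 CPM in GV, 361.9 and 369.6 CPM in CH, and 386.9 and 373.3 CPM in CV. Neuronal markers, all 3 detected, summed to 26.04 and 21.95 CPM in GH, 31.1 and 27.8 CPM in GV, 14.5 and 15.2 CPM in CH, and 22.7 and 24.97 CPM in CV. The GV sums were the highest for both lists, but not every member followed. Sox11, Syt1 and Snap25 were highest in GV, and Cd24a overlapped between GV and GH. Tubb3 was lower in GV (12 and 11.52 CPM) than in the C libraries (13.62 to 16.74 CPM). Rbfox3 had 4.214 and 2.69 CPM in GV, against 4.165 and 4.374 CPM in CV. Dcx, Dlx1 and Dlx2 had at most 2.086 CPM in any library. The part of these cell types in the results was not tested, and in bulk RNA fewer cells of a type cannot be told apart from less RNA per cell.

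Promoter windows from RefSeq (build GRCm38.p6, 250 bases before to 50 bases after each start, 300 bases in all) were found for 69 of the 89 genes. Nuclear respiratory genes are textbook targets of NRF1, of the ETS factor GABP, of YY1 and of estrogen-related receptors. On either strand, the NRF1 core TGCGCA was present in 18 of the 69 genes (26.1%), against 8.79% of all 27025 genes with a window. The ETS core CCGGAA was present in 26 of the 69 (37.7%), against 16.7% of all genes. The YY1 string AAGATGGC was present in 10 (14.5%, against 3.19%), and the estrogen-related receptor string TCAAGGTCA in 2 (2.9%, against 0.466%). No string contains another, and a match is a description of the letters in the window, not a bound site. Windows of these genes were also richer in G and C, with a median of 57.3% for 74 windows against 52.7% for all 32851 windows. Windows are shown for the widely expressed complex IV isoforms Cox8a and Cox6a1 and for Cox8b, which had the largest log2 fold change of the tested subunits in 3 of the 6 comparisons below. Capitals mark the strings above, each read 5′ to 3′ on the gene's strand.
Cox8a (chr19:7217567-7217866, minus strand): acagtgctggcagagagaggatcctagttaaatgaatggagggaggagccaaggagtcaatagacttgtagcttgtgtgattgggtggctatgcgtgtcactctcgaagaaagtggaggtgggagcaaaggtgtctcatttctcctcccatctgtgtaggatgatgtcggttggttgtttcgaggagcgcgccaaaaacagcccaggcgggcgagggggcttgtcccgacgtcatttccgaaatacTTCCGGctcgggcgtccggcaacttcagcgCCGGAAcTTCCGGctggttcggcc
Cox6a1 (chr5:115348909-115349208, minus strand): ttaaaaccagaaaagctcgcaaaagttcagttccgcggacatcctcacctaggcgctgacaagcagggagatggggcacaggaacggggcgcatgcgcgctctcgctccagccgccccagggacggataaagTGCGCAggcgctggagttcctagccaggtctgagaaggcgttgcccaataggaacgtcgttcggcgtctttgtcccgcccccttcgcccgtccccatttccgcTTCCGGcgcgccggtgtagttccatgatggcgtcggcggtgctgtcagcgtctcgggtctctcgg
Cox8b (chr7:140900397-140900696, minus strand): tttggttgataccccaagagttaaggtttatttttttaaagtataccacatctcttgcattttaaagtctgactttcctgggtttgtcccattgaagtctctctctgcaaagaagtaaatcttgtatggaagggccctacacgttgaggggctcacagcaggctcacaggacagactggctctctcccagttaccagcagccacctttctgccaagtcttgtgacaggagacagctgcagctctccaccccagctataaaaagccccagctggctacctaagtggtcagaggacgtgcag
The Cox8a window held 3 matches to the ETS core, the Cox6a1 window held 1 match to the NRF1 core and 1 to the ETS core, and the Cox8b window held 0 matches to any of the 4 strings.

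Levels of the 84 tested genes spanned mean values of 0.197 to 2395 CPM, with a median of 216 CPM. CPM is not per length, so these values order libraries within a gene and not genes among each other. Atp5b, the catalytic beta subunit of ATP synthase, had 2439 and 2410 CPM in GH, 2209 and 2400 CPM in GV, 2486 and 2426 CPM in CH, and 2385 and 2405 CPM in CV. Sdha, the flavoprotein of succinate dehydrogenase, had 375.0 and 372.1 CPM in GH, 376.8 and 380.4 CPM in GV, 391.1 and 387.6 CPM in CH, and 373.4 and 375.8 CPM in CV. Both genes were close to level across the libraries. Only 7 tested genes had a mean under 10 CPM, and these were Ndufa4l2, Ndufb4b, Ndufb4c, Cox6a2, Cox6b2, Cox7a1 and Cox8b. GV1 was the lowest of the 8 libraries for 69 of the 84 genes, whereas CV2 was the highest for 31 and GH1 for 28. The same counts over all genes are not given, so these describe the subunits only.

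**Figure D1:**
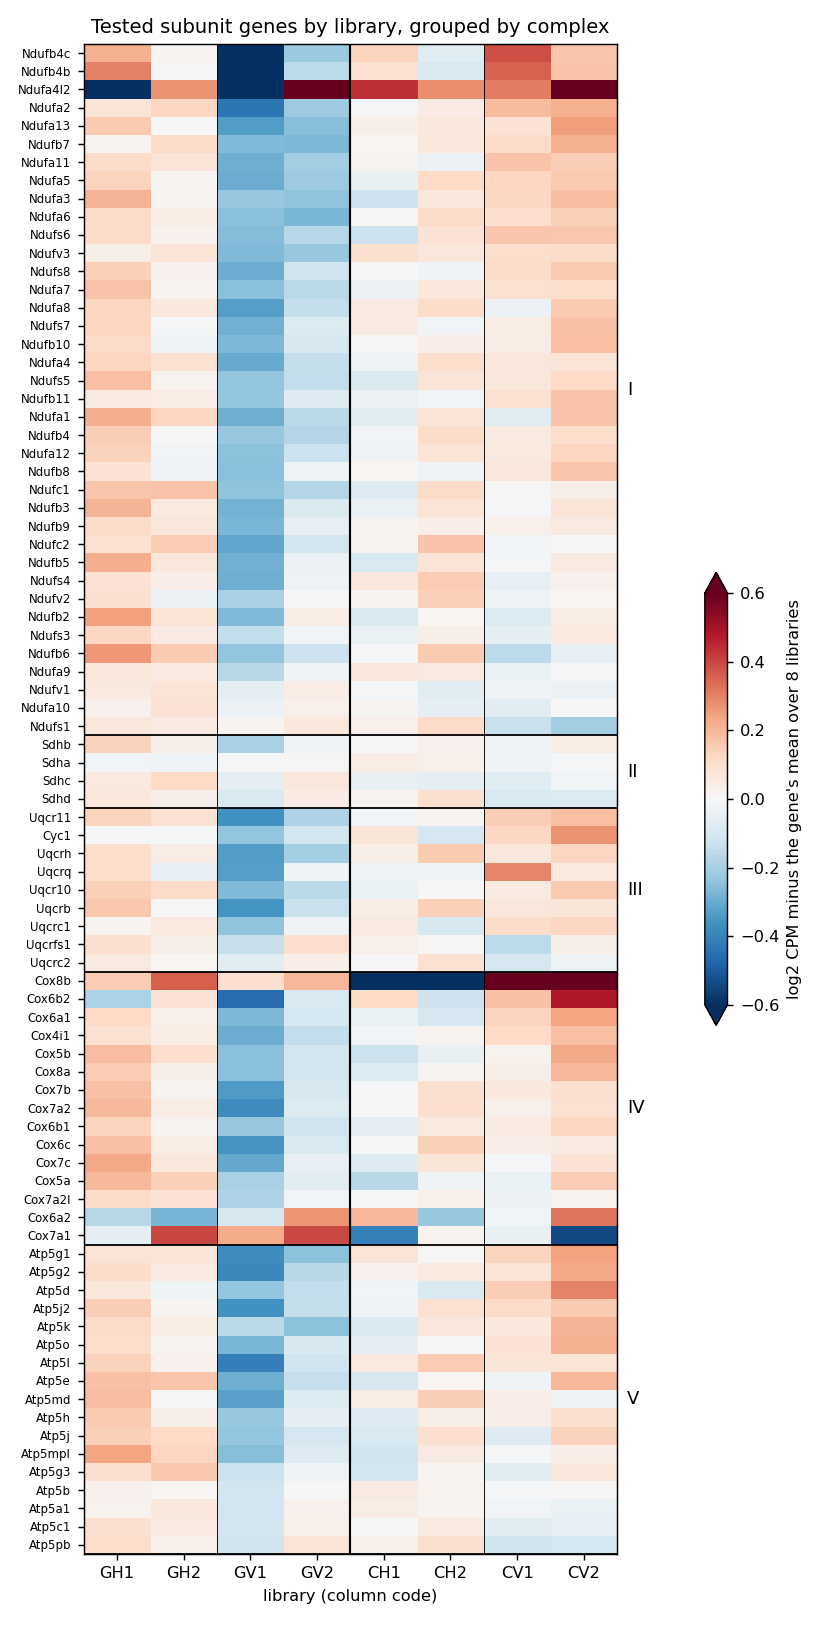
Each row is 1 of 83 tested subunit genes, grouped by complex I to V, and each column 1 library. Colour gives log2 CPM minus the gene's mean over the 8 libraries, with values beyond 0.6 in either direction drawn in the end colours. The GV columns are mostly blue, with GV1 lowest for 69 of all 84 tested genes, and the rows of complex II are close to white.

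S1PR1-deficient libraries were compared with control libraries under the code V. In GV against CV, 50 of the 84 tested genes fell and 1 rose (edgeR quasi-likelihood test, Benjamini-Hochberg adjusted p under 0.05 over all 17644 genes). Over all genes 13.4% fell and 11.6% rose. The median log2 fold change was -0.28 over the subunits and -0.02 over all tested genes. The 50 that fell had log2 fold changes from -0.69 to -0.21, with a median of -0.34. In 59 of the 84 genes both GV libraries lay below both CV libraries, in 3 they lay above, and in 49 both GV libraries lay below all 6 other libraries. Counts of genes without overlap, here and below, have no share over all genes beside them. With 2 libraries in a code, groups can separate by chance, so these counts only describe the subunits. Leaving out CV2 left 21 of the 84 subunits called in GV against CV, and leaving out GV1 left 26.

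In complex I, 24 of 39 tested genes fell in GV against CV. Ndufa2, a small accessory subunit of the NADH-oxidising module, had 124.8 and 145.5 CPM in GV, against 193.0 and 195.7 CPM in CV. Its groups did not overlap, and its log2 fold change was -0.52 ± 0.07 (SE, n = 2 each, edgeR adjusted p = 0.000452). Ndufa13, also known as GRIM-19, had 174.7 and 184.3 CPM in GV, against 233.6 and 262.2 CPM in CV. Ndufb7, an accessory subunit of the membrane arm, had 103.8 and 103.6 CPM in GV, against 135.1 and 144.9 CPM in CV. Both fell, by 0.47 (edgeR adjusted p = 0.000904) and 0.43 (edgeR adjusted p = 0.000589) on the log2 scale. Ndufs1, the largest core subunit and a carrier of iron-sulfur clusters, went the other way, with 209.0 and 216.5 CPM in GV, against 188.7 and 179.2 CPM in CV (log2 fold change 0.21 ± 0.06, SE, edgeR adjusted p = 0.0197). It did not pass the test without GV2 or without CV2. With the length and GC trends described below taken out, the log2 fold change of Ndufs1 was 0.06 (edgeR adjusted p = 0.428). Ndufc2, an accessory subunit, had 354.1 and 407.3 CPM in GV, against 434.4 and 439.7 CPM in CV, and did not pass the test (edgeR adjusted p = 0.0634). Ndufb4b and Ndufb4c gave the lowest log2 fold changes of complex I, -0.65 and -0.69, at under 10 CPM. They are near-identical copies of Ndufb4, so how reads were shared among them is uncertain.

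In complex II, 0 of 4 genes passed in any of the 6 comparisons on the counts as deposited, by edgeR or by DESeq2. At an unadjusted p under 0.05, 1 of the 4 passed in each of 4 comparisons. Sdha, Sdhb and Sdhc, of which Sdhb carries the iron-sulfur clusters and Sdhc anchors the enzyme in the membrane, had log2 fold changes of 0.02, -0.12 and 0.05 in GV minus CV. Sdhc rose in G against C with the length and GC trends described below taken out (0.12, edgeR adjusted p = 0.0186).

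In complex III, 7 of 9 genes fell in GV against CV. Uqcr11, a small accessory subunit, had 219.1 and 248.2 CPM in GV, against 312.6 and 320.0 CPM in CV. Its log2 fold change was -0.44 ± 0.06 (SE, n = 2 each, edgeR adjusted p = 0.000695). Uqcrh, the hinge protein beside cytochrome c1, had 378.5 and 414.1 CPM in GV, against 500.8 and 521.7 CPM in CV, and fell by 0.37 on the log2 scale (edgeR adjusted p = 0.00164). Uqcrc1 and Uqcrc2 are the core proteins. Uqcrc1 fell by 0.25 (edgeR adjusted p = 0.0271), whereas Uqcrc2 had a log2 fold change of 0.05 (edgeR adjusted p = 0.601). With the length and GC trends described below taken out, Uqcrc1 was at -0.03 (edgeR adjusted p = 0.751) and Uqcrc2 at -0.13 (edgeR adjusted p = 0.0486). The difference between these genes was not tested.

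In complex IV, 10 of 15 tested genes fell in GV against CV. Cox4i1, the widely expressed isoform of a regulatory subunit, had 575.1 and 638.8 CPM in GV, against 767.2 and 801.4 CPM in CV (log2 fold change -0.37 ± 0.06, SE, edgeR adjusted p = 0.00116). Cox8a, with the ETS matches shown above, had 481.6 and 531.0 CPM in GV, against 585.9 and 657.1 CPM in CV, and fell by 0.30 (edgeR adjusted p = 0.0108). Cox6a1 had 283.1 and 316.8 CPM in GV, against 374.6 and 402.2 CPM in CV, and fell by 0.37 (edgeR adjusted p = 0.0022). Cox7c, a small membrane subunit, had 407.1 and 485.8 CPM in GV, against 498.8 and 533.6 CPM in CV. Its groups did not overlap, yet it did not pass the test (edgeR adjusted p = 0.097).

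In complex V, 9 of 17 genes fell in GV against CV. Atp5g1 encodes the c subunit of the rotor ring, as Atp5g2 and Atp5g3 also do. It had 216.8 and 237.3 CPM in GV, against 308.6 and 331.7 CPM in CV, the smallest adjusted p of all the subunits (log2 fold change -0.50 ± 0.06, SE, edgeR adjusted p = 0.000326). Atp5g2 had 269.1 and 313.4 CPM in GV, against 371.4 and 411.3 CPM in CV, and fell by 0.43 (edgeR adjusted p = 0.00182). Atp5g3 had 340.4 and 363.7 CPM in GV, against 354.9 and 388.0 CPM in CV, with overlapping groups (edgeR adjusted p = 0.447). Atp5d and Atp5e, the delta and epsilon subunits of the central stalk, fell by 0.41 (edgeR adjusted p = 0.00127) and 0.31 (edgeR adjusted p = 0.0128). Atp5b, Atp5a1 (the alpha subunit) and Atp5pb (subunit b of the peripheral stalk) had log2 fold changes of -0.06, -0.01 and 0.09, and 0 of these 3 passed.

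**Figure D2:**
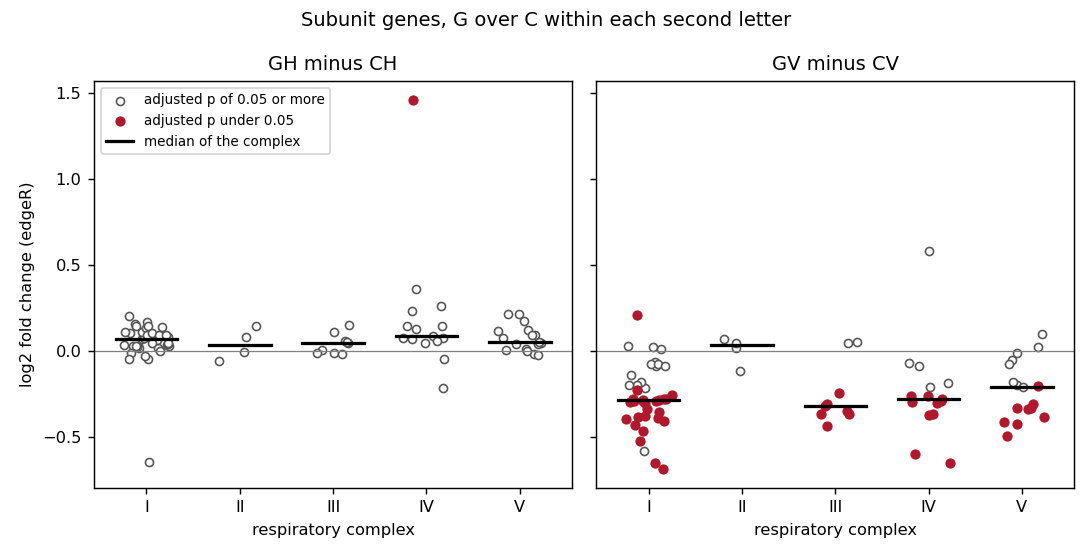
Points are tested subunit genes by complex, with the log2 fold change of G over C under code H (left) and code V (right). Filled points passed an adjusted p of 0.05 and bars are medians. Under V the medians of complexes I, III, IV and V lie between -0.32 and -0.21 and that of complex II at 0.03, whereas under H 1 gene, Cox8b, is filled.

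Transcript length and base composition moved with these values. The tested subunits had a median transcript length of 737 bases and a median GC content of 52%, against 2778 bases and 50.6% in the other protein-coding genes tested. Of the 56 subunits with transcripts of up to 1000 bases, 42 fell in GV against CV, against 6 of the 26 with longer transcripts. The shares of other genes that fell in these length classes are not given, so the counts describe the subunits only. All 4 genes of complex II are in the longer class. Among transcripts between 500 and 1000 bases, the median log2 fold change of GV minus CV was -0.30 over 41 subunits and -0.24 over 895 other genes. Among those of up to 500 bases it was -0.32 over 15 subunits and -0.51 over 88 other genes, and between 2000 and 3000 bases it was 0.00 over 6 subunits and 0.00 over 3336 other genes. Over the 82 subunits with a length, the Spearman correlation of the GV minus CV log2 fold change was 0.50 with length and -0.51 with GC. Over 6165 other protein-coding genes with an average log2 CPM above 5, a limit not set for the subunits, these were 0.31 and -0.76. In each GC range the subunits had a lower median than the other genes. Between 44% and 48% GC it was -0.21 over 11 subunits and 0.12 over 2635 other genes. Above 56% GC it was -0.37 over 15 subunits and -0.26 over 2859 other genes. All points come from the same libraries, and genes are not independent replicates.

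A fit with a smooth trend on length and GC taken out of each library, chosen after seeing the data, changed the count of calls. In it, 11 of 82 subunits rose and 10 fell in GV against CV, with a median log2 fold change of 0.01, while 5.95% of the 13692 genes with a length rose and 9.06% fell. Of the 48 subunits with a length that had fallen, 6 also fell in that fit and 7 rose. Atp5g1 (-0.49, edgeR adjusted p = 2e-06), Cox7b (-0.47, edgeR adjusted p = 1e-06) and Ndufa2 (-0.20, edgeR adjusted p = 0.00916) were lower in both. The median length of 2676 bases used for Atp5g1 is uncertain, because its annotated transcripts differ widely in length. Cox8a (0.22, edgeR adjusted p = 0.00332), Uqcr11 (0.17, edgeR adjusted p = 0.0108) and Cox6a1 (0.13, edgeR adjusted p = 0.0369) turned from lower to higher, as did Atp5e (0.23, edgeR adjusted p = 0.00672). Cox4i1 and Ndufb7 no longer passed, at 0.02 and 0.05.

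**Figure D3:**
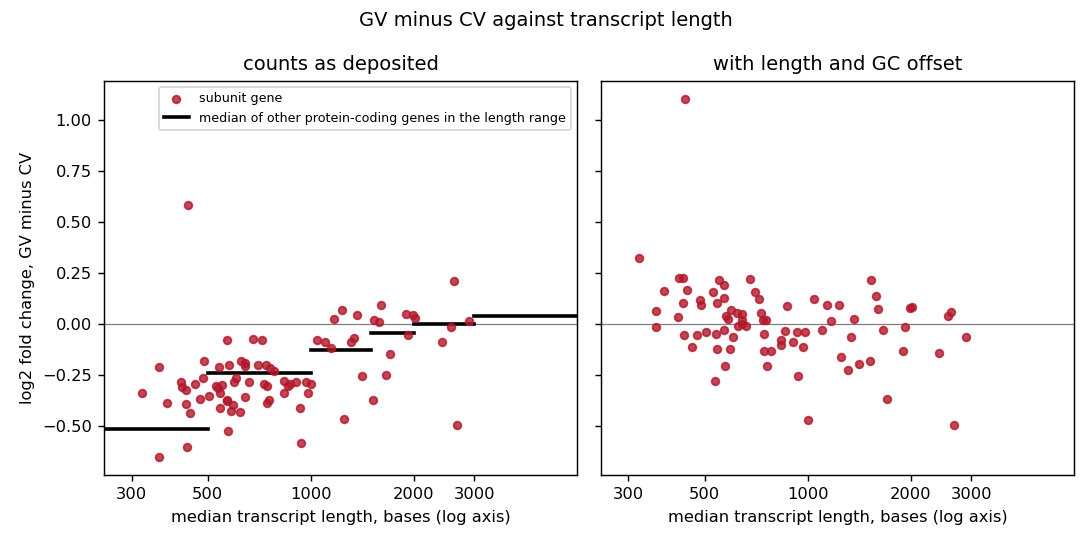
Points are the 82 tested subunits with a transcript length, by length (log axis) and log2 fold change of GV minus CV, from counts as deposited (left) and with the length and GC trends taken out (right). Bars on the left are medians of the other protein-coding genes in 6 length ranges, of which the outermost are drawn to the edge of the axis. On the left, short transcripts are low among subunits and other genes alike, and on the right the subunits have a median of 0.01.

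Under the code H, the S1PR1-deficient and control libraries differed in 1 subunit. In GH against CH, Cox8b rose and 0 of 84 genes fell, while 0.759% of all genes rose and 1.05% fell. At an unadjusted p under 0.05, 8 rose and 0 fell, and DESeq2 called 2 higher and 0 lower. Shares of all genes at an unadjusted p or by DESeq2 are not given, here or in the other comparisons. The median log2 fold change was 0.07 over the subunits and 0.00 over all genes. In 30 of the 84 genes both GH libraries lay above both CH libraries, and in 2 they lay below. With the length and GC trends taken out, 8 of 82 rose, against 3.32% of all genes. They were Cox8b (1.48), Cox5a (0.25), Cox5b (0.22), Atp5e (0.22), Atp5mpl (0.20), Atp5g3 (0.16), Cox6a1 (0.15) and Uqcr10 (0.15), of which Cox5a and Cox5b encode subunits on the matrix side of complex IV.

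Cox8b is an isoform of a small complex IV subunit, known from heart, skeletal muscle and brown fat. It had counts of 155 and 171 in GH, 162 and 161 in GV, 64 and 58 in CH, and 221 and 261 in CV. As levels these were 3.71 and 4.28 CPM in GH, 3.57 and 3.83 CPM in GV, 1.60 and 1.30 CPM in CH, and 5.68 and 5.95 CPM in CV. The G libraries were close to each other, and the C libraries parted by the second letter. GH was 2.76 times CH (log2 fold change 1.46 ± 0.20, SE, n = 2 each, edgeR adjusted p = 0.00279), and GV was 0.637 times CV (edgeR adjusted p = 0.0188). CH was 0.249 times CV (log2 fold change -2.00 ± 0.19, SE, edgeR adjusted p = 0.000238). Between GH and GV the log2 fold change was 0.11 ± 0.18 (SE, edgeR adjusted p = 0.848). Taking out the length and GC trends left Cox8b called in GH minus CH (1.48, edgeR adjusted p = 0.000378) and in CH minus CV (-1.80, edgeR adjusted p = 2.3e-05). It was no longer called in GV minus CV (-0.01, edgeR adjusted p = 0.983), nor without GV1, CV1 or CV2 (log2 fold changes from -0.68 to -0.60). Cox8a, the widely expressed isoform, had 636.5 and 587.4 CPM in GH, 540.7 and 579.6 CPM in CH, and did not pass in GH minus CH (edgeR adjusted p = 0.49).

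**Figure D4:**
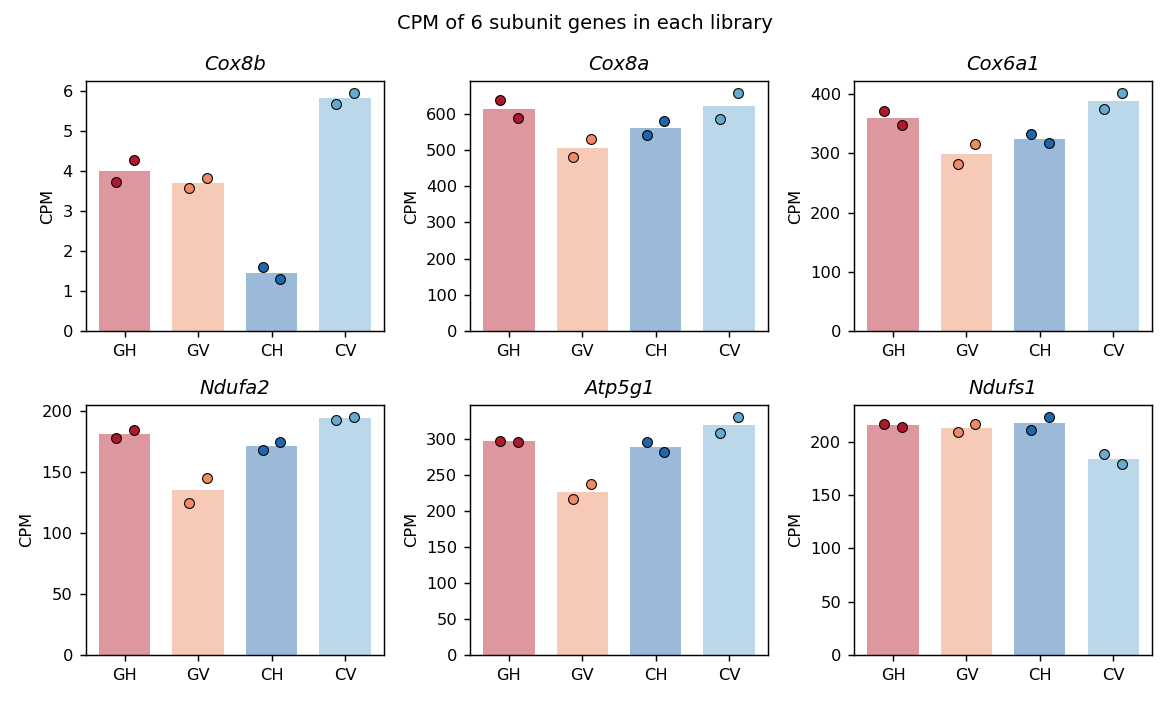
Bars are the mean CPM of 2 libraries and points the libraries, for the codes GH, GV, CH and CV and for 6 subunit genes. Cox8b is lowest in CH (1.60 and 1.30 CPM) and highest in CV (5.68 and 5.95 CPM), Ndufa2 and Atp5g1 are lowest in GV, and Ndufs1 is lowest in CV.

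Within the control libraries 4 subunits passed the test. In CH against CV, Ndufs1 rose and Cox8b, Atp5d and Cox6a1 fell, 4 of 84, while 5.68% of all genes rose and 4.99% fell. Ndufs1 had 211.5 and 223.7 CPM in CH, against 188.7 and 179.2 CPM in CV (log2 fold change 0.24 ± 0.06, SE, edgeR adjusted p = 0.023). Atp5d had 173.8 and 165.1 CPM in CH, against 194.5 and 215.9 CPM in CV (log2 fold change -0.28 ± 0.07, SE, edgeR adjusted p = 0.0253). Cox6a1 had 332.2 and 318.0 CPM in CH, against 374.6 and 402.2 CPM in CV (log2 fold change -0.26 ± 0.07, SE, edgeR adjusted p = 0.0331). Both CH libraries lay below both CV libraries in 32 of the 84 genes and above them in 14. The median log2 fold change was -0.05 over the subunits and -0.01 over all genes. Once the length and GC trends were taken out, Ndufb6 (0.19) rose and Cox8b, Cox5a (-0.17), Cox5b (-0.17) and Cox7b (-0.24) fell, beside 5.84% and 5.51% of all genes. The count of calls without a library was 1 without CH2, CV2, GH1 or GH2, 2 without CV1, and 7 without GV1 or GV2.

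Within the S1PR1-deficient libraries the subunits were higher in GH. In GH against GV, 18 of 84 rose and 0 fell, while 1.14% of all genes rose and 0.136% fell. At an unadjusted p under 0.05, 64 rose and 0 fell, and DESeq2 called 49 higher and 0 lower, again without the shares of all genes. The median log2 fold change was 0.28 over the subunits and 0.00 over all genes, and in 67 of the 84 genes both GH libraries lay above both GV libraries. Ndufa2 had 178.2 and 184.9 CPM in GH, against 124.8 and 145.5 CPM in GV (log2 fold change 0.43 ± 0.07, SE, edgeR adjusted p = 0.0201). Atp5g1 had 297.5 and 297.1 CPM in GH, against 216.8 and 237.3 CPM in GV (edgeR adjusted p = 0.018). Ndufb6, a membrane-arm subunit, had 159.9 and 148.8 CPM in GH, against 113.4 and 122.5 CPM in GV, and Atp5e had 242.7 and 241.1 CPM in GH, against 175.3 and 195.0 CPM in GV. These 2 rose by 0.39 each on the log2 scale. Taking out the length and GC trends left 4 called higher, beside 0.913% of all genes: Atp5g1 (0.40), Cox7b (0.24), Ndufa13 (0.23) and Ndufs4 (0.23), an accessory subunit of the peripheral arm. The count was 0 in a fit of only the 4 G libraries and without GH1, GH2 or GV1, 7 without CV1, 5 without CV2 and 52 without GV2.

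The difference between these effects was tested as (GH minus GV) minus (CH minus CV). It was called positive in 34 of 84 subunits and called negative in 0, while 3.93% of all genes were called higher and 3.41% lower. Called or not, the value lay above 0 in 76 subunits and below 0 in 8. At an unadjusted p under 0.05, 58 were positive and 1 negative, and DESeq2 called 45 and 1. The median was 0.33 over the subunits and 0.02 over all genes. By complex the calls were 15 of 39 in I, 0 of 4 in II, 4 of 9 in III, 7 of 15 in IV and 8 of 17 in V. After Cox8b (2.11 ± 0.27, SE, edgeR adjusted p = 0.00304) came Ndufa2 (0.60 ± 0.10, SE, edgeR adjusted p = 0.00979) and Uqcr11 (0.55 ± 0.09, SE, edgeR adjusted p = 0.00979). With the length and GC trends taken out, 8 of 82 were called higher, beside 2.16% of all genes, with a median of 0.04. They were Cox8b (1.49), Atp5g1 (0.55), Cox7b (0.48), Ndufs4 (0.30), Ndufb3 (0.29), Ndufa2 (0.28), Cox5b (0.27) and Uqcrb (0.23). Calls numbered 1 without CV2, GH1 or GH2, 15 without CH2, 18 without GV1, 19 without CH1, 21 without CV1 and 56 without GV2.

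Taken over both second letters, 16 of 84 subunits fell and 0 rose in G against C, while 10.2% of all genes fell and 9.03% rose. At an unadjusted p under 0.05, 32 fell and 3 rose, and DESeq2 called 17 lower and 1 higher. The 16 had log2 fold changes from -0.23 to -0.15. In 0 of the 84 genes did the 4 G libraries separate from the 4 C libraries. Ndufa2 averaged 158.4 ± 28.2 CPM in G and 183.0 ± 13.4 CPM in C (SD, n = 4 each), with a log2 fold change of -0.22 ± 0.05 (SE, edgeR adjusted p = 0.00983). A fit with genotype as its only term called 0. Taking out the length and GC trends turned the direction of the calls, to 19 higher and 5 lower of 82, beside 8.09% and 10.5% of all genes. Calls numbered 4 without CV2, GH1 or GH2, 7 without GV1, 9 without CH1, 10 without CH2 and 36 without GV2.

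Among isoform pairs, the counts lay with the widely expressed members. Cox4i2, known from lung and from hypoxia, had 2 counts in GH1, 2 in CH1 and 0 in the other 6 libraries, and Cox7b2 had 2 counts in CH1 and 0 elsewhere. Cox8c had 0 counts in all 8 libraries, which allows up to 3 counts or 0.0771 CPM in a library. Intervals and floors of this kind cover counting error only. Cox6a2 and Cox7a1, the muscle isoforms, averaged 2.36 CPM and 0.407 CPM over the 8 libraries, and neither passed in any comparison. Cox6b2, known from testis, had 2.89 and 3.71 CPM in GV, against 4.47 and 5.54 CPM in CV, and fell by 0.60 (edgeR adjusted p = 0.046). Cox6b1, its widely expressed counterpart, had 422.3 and 455.3 CPM in GV, against 513.2 and 541.1 CPM in CV, and fell by 0.26 (edgeR adjusted p = 0.0108). Cox7a2 fell by 0.28 (edgeR adjusted p = 0.0312), Cox7b by 0.29 (edgeR adjusted p = 0.0204), and Cox7a2l, a factor of supercomplex assembly, had a log2 fold change of -0.09 (edgeR adjusted p = 0.352). Ndufa4, now assigned to complex IV despite its name, had 446.6 and 498.8 CPM in GV, against 576.7 and 580.5 CPM in CV, and fell by 0.29 (edgeR adjusted p = 0.0066). Of these calls that of Cox7b held once the length and GC trends were taken out. In that fit the log2 fold change was -0.05 for Cox6b2 (edgeR adjusted p = 0.906), 0.12 for Cox6b1 (edgeR adjusted p = 0.0505), -0.01 for Cox7a2 (edgeR adjusted p = 0.927) and -0.11 for Ndufa4 (edgeR adjusted p = 0.0754). Ndufa4l2, known as a hypoxia-induced gene, had between 2 and 14 counts per library.

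The subunits encoded by mitochondrial DNA went in the other direction. In GV against CV, 10 of 13 rose and 0 fell, with a median log2 fold change of 0.50, while 11.6% of all genes rose. In CH against CV, 6 of 13 also rose and 0 fell, with a median of 0.31, while 5.68% of all genes rose. In GH against CH, 0 of 13 passed, with a median of -0.15, and 4 fell at an unadjusted p under 0.05. COX1, the catalytic subunit of complex IV, had 13530 and 14130 CPM in GV, against 9663 and 9766 CPM in CV (log2 fold change 0.51 ± 0.07, SE, edgeR adjusted p = 0.000405). ATP8, a small complex V subunit, rose by 0.94 (edgeR adjusted p = 0.000951). In the difference between effects 9 of the 13 were negative and called, beside 3.41% of all genes, with a median of -0.71. With the length and GC trends taken out, 7 of 13 rose in GV against CV, with a median of 0.17, and 7 were negative and called in the difference, with a median of -0.32. The shares over all genes in that fit were 5.95% and 1.92%. Its medians for the 13 were 0.00 in CH minus CV and -0.21 in GH minus CH. The share of counts on mitochondrial DNA was 3.01% and 2.86% in GH, 3.49% and 3.46% in GV, 2.59% and 3.30% in CH, and 2.37% and 2.44% in CV. The small non-coding RNAs Rn7s1, Rn7s2, Rn7sk and Rpph1 together took 3.22% and 3.19% of counts in GH, 1.92% and 2.22% in GV, 4.47% and 4.13% in CH, and 4.83% and 4.08% in CV. GV thus had the highest share of mitochondrial transcripts and the lowest share of these small RNAs, and the part of either in the subunit values was not tested.

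**Figure D5:**
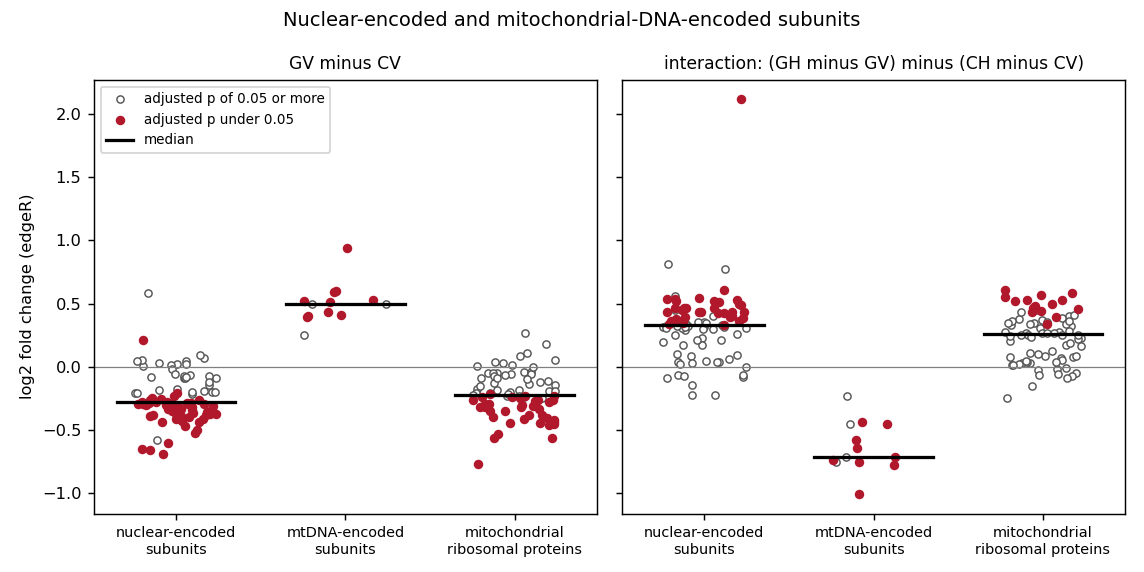
Points are genes, filled where the adjusted p was under 0.05, with medians as bars, for GV minus CV (left) and the difference between effects (right). The nuclear-encoded subunits have medians of -0.28 and 0.33, the 13 subunits encoded by mitochondrial DNA 0.50 and -0.71, and the 78 mitochondrial ribosomal proteins -0.22 and 0.26.

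Among other nuclear genes of the pathway, 36 of 78 mitochondrial ribosomal proteins, which take part in translating the mitochondrial messages, fell and 0 rose in GV against CV, with a median log2 fold change of -0.22. Over all genes 13.4% fell and 11.6% rose in that comparison. Of 48 tested assembly factors, which build the complexes without staying in them, 12 fell and 4 rose, with a median of -0.06. Of 24 regulators of respiratory genes and mitochondrial biogenesis, 4 fell and 3 rose. Of 27 tested genes of electron and adenine nucleotide carriers, 3 fell and 2 rose, and of 21 genes of the tricarboxylic acid cycle and pyruvate dehydrogenase, 2 fell and 2 rose. Without the length and GC trends, 21 mitochondrial ribosomal proteins fell and 1 rose, with a median of -0.08. In the same fit 5 assembly factors fell and 3 rose, beside 9.06% and 5.95% of all genes.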

How the data were processed

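Neural stem cell RNA was made into strand-marked total RNA libraries after removal of ribosomal RNA, per the labels' protocols. HISAT2 2.1.0 and StringTie 2.1.3b appear in the submitters' processing notes, as do Trimmomatic, bcl2fastq 2.20.0 and the builds GRCm38 and mm10. The authors deposited a read count per gene and library, and the 8 count columns were used as deposited. Another 16 columns of values per library were not used. Counts were scaled by TMM and tested with edgeR 4.0.16 in R 4.3.3 (filterByExpr, quasi-likelihood test, 4 codes as groups, 4 residual degrees of freedom), with adjustment over all genes tested and a threshold of 0.05. DESeq2 1.42.0 was an alternative. The script was tested on simulated data. Transcript length and GC were medians over GENCODE M21 transcripts, and the trend fit used splines of 5 degrees of freedom for each. Members and lists were chosen with earlier results of these data known. Named genes were the 3 highest by mean CPM in each complex, the 5 largest changes among calls in each comparison, and the isoform sets, of which 1 gene is not reported here. Other genes named in the report were chosen after their values were seen. Same-numbered libraries did not deviate together (correlations from -0.067 to 0.107), so the main test has no block. Replicates differed by more than sampling noise in every code.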

Additional observations from a re-analysis of the deposited data

Results flagged for a closer look

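For 16 named subunits the effect of the second letter differed between G and C in the direct test of that difference (edgeR, adjusted p under 0.05 over all genes). Over all genes 3.93% were called higher and 3.41% lower in that test. Some genes were named for their calls in this test or in other comparisons, so the count of 16 only describes the named genes. As log2 differences, (GH minus GV) minus (CH minus CV), they were 2.11 for Cox8b, 0.60 for Ndufa2, 0.55 for Uqcr11, 0.54 for Atp5g1, 0.53 for Cox5b, 0.52 for Cox6a1 and for Atp5e, 0.49 for Ndufa13 and for Atp5d, 0.47 for Atp5g2, 0.46 for Ndufb7, 0.44 for Cox4i1, 0.42 for Cox8a, 0.36 for Ndufa4, 0.35 for Uqcrh and 0.34 for Cox6b1. With the length and GC trends taken out, 4 of the 16 passed: Cox8b, Atp5g1, Ndufa2 and Cox5b.

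In 2 named subunits a library stood apart from the other 3 of its first letter. Atp5b had 2209 CPM in GV1, below the other G libraries. Ndufc2 had 495.1 CPM in CH2, above the other C libraries. Chance flags about 1 in 20 such groups.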

How the results depend on the processing

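Each code has 2 libraries, which limits every test. The cause of the changes below was not tested. Counts of calls without a library, here and above, and counts by setting in this section have no share over all genes beside them. Calls in GV minus CV, 51 of 84 subunits, were 22 with a length offset, 31 with a GC offset and 21 with both. Calls in GH minus CH, 1, were 2 without a low-count filter, with DESeq2 or with a GC offset, 4 with a length offset and 8 with both. Calls in CH minus CV, 4, were 7 with DESeq2, 11 with a length offset and 1 with a GC offset. Calls in GH minus GV, 18, were 44 without a low-count filter, 49 with DESeq2, 0 with only the G libraries, 41 on protein-coding genes, 45 on genes with a length, 2 with a length offset, 35 with a GC offset and 4 with both. Calls in the difference between effects, 34, were 12 with a length offset, 19 with a GC offset and 8 with both. Calls in G minus C, 16, were 0 with genotype as the only term, and 24 with both offsets, where the split went to 19 higher and 5 lower. With a length offset alone it was 15 higher and 3 lower.

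Leaving out each library gave 4 to 36 calls in G minus C, 1 in GH minus CH, 21 to 59 in GV minus CV, 1 to 7 in CH minus CV, 0 to 52 in GH minus GV and 1 to 56 in the difference between effects. S1pr1 in G minus C ranged from -0.011 (without CV2) to 0.175 on the log2 scale. Upper-quartile or median-of-ratios factors, and leaving out mitochondrial DNA genes, kept every count of calls within 1.5 times. With the replicate number as a block, calls were 14 in G minus C, 1 in GH minus CH, 51 in GV minus CV, 3 in CH minus CV, 13 in GH minus GV and 28 in the difference, all within 1.5 times of the fit without it.

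Some named genes changed sign. In G minus C they were Uqcrh (0.007) and Uqcr11 (0.051) with a length offset, and Cox4i1 (0.043), Ndufb7 (0.045), Atp5d (0.022), Uqcr11 (0.144) and Atp5g2 (0.033) with both offsets. In GV minus CV they were Ndufa4 (0.124), Uqcrh (0.037), Cox8a (0.051), Atp5e (0.146) and Cox6b1 (0.131) with a length offset. With both offsets they were Cox4i1 (0.02), Cox8a (0.219), Ndufb7 (0.055), Cox6a1 (0.131), Atp5e (0.228), Uqcr11 (0.167), Cox6b1 (0.118) and Atp5g2 (0.026). In the difference between effects they were Ndufa4 (-0.056), Uqcrh (-0.06) and Cox6b1 (-0.06) with a length offset, and Cox8a (-0.086), Ndufb7 (-0.02), Atp5e (-0.011), Uqcr11 (-0.045) and Cox6b1 (-0.049) with both. The protein-coding, length and GC settings were chosen after seeing the data.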
